A study of Mus musculus with 12 samples.

Results

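The tripartite motif (TRIM) genes were followed in MC38CEA cells, which derive from a colon adenocarcinoma of the mouse and carry carcinoembryonic antigen. Members were all rows of the count table with the symbol Trim, a number and at most 1 letter after it. A member also had to reach a mean of 1 CPM (a count over the scaled total of its library, times 1000000) in at least 1 group. Of 43269 genes in the table, 67 had such a symbol, and 40 of these were members. All 40 passed the filter on low counts among 14673 genes tested. The lowest members were Trim34b and Trim62, each with 1.27 CPM as its highest group mean. Trim66, at 0.945 CPM, and Trim69, at 0.831 CPM, lay just outside the limit. Trim30b, Trim30c and Trim34b passed it only through stimulated cells, and Trim62 only through unstimulated cells.

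The cells had received Cas9 mRNA and then in vitro transcribed guide RNAs against Adam17 (Adam17-KD) or EGFP (control), both by electroporation. All groups thus shared Cas9 mRNA, guide RNA and the procedure. The sources used here do not state whether the RNA came from the edited populations or from clones of them. Cells of each kind were stimulated for 6 h with human recombinant IL1β and mouse recombinant IFNγ, each at 10 ng/ml, or were left unstimulated. The 4 groups were stimulated Adam17-KD, stimulated control, unstimulated Adam17-KD and unstimulated control cells, with 3 biological replicates each and 12 poly(A)+ RNA libraries in all. The sources used here do not say whether replicates were separate edits or separate cultures, so p-values cover only the spread between these samples.

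Library totals ran from 13156871 to 25443307 counts. Adam17 itself stood at 57.1 to 62.4 CPM in stimulated Adam17-KD cells, against 93.8 to 111 CPM in stimulated control cells. It stood at 49.7 to 57.3 CPM in unstimulated Adam17-KD cells, against 76.9 to 94.4 CPM in unstimulated control cells. All 14 epithelial markers together summed to only 1.37 to 2.35 CPM in any library, with Cldn3 at 0 in every group, so the epithelial label was not borne out by these markers. The 17 leukocyte markers summed to 18.7 to 37.1 CPM, with Cd3e at 0 in every group. The 12 fibroblast and endothelial markers summed to 744 to 974 CPM in stimulated Adam17-KD cells and 261 to 658 CPM in stimulated control cells. Without cytokines these sums were 842 to 1151 CPM in Adam17-KD cells and 409 to 604 CPM in control cells. Replicate 2 of stimulated control cells stood apart from both other replicates of its group, and results that turn on it are given with and without it. In bulk RNA, fewer cells of a type and less RNA per cell cannot be told apart.

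TRIM proteins carry a RING finger, one or more B-boxes and a coiled coil, in that order. The RING finger binds E2 enzymes loaded with ubiquitin and passes the ubiquitin to a substrate, which makes most TRIM proteins E3 ubiquitin ligases. The part behind the coiled coil sets the target and divides the family into classes, of which the largest ends in a PRY-SPRY domain. Many PRY-SPRY members act in antiviral defence, and interferons induce a number of them through promoter elements called gamma-activated sites (GAS) and interferon-stimulated response elements (ISRE).

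Promoter stretches are shown first for the members whose response to the cytokines is described next. By rule these were the members with the smallest adjusted p in the response of control cells, Trim30c, Trim21, Trim34a and Trim12a. Trim14 belonged to the same rule and is named only. Trim5, Trim12c, Trim30a, Trim30d and Trim26 were added after the search because they hold a match. The sequences are RefSeq's, build GRCm38.p6, written 5′ to 3′ on the gene's strand, and most run from 70 bases before to 29 bases after the start base, which counts as 0. That of Trim26 runs from 170 to 71 bases before it. Capitals mark matches to the ISRE core GAAANNGAAA on either strand or, in Trim30c, to the palindromic GAS motif TTCNNNGAA.
Trim30c, chr7:104400749-104400848, minus strand: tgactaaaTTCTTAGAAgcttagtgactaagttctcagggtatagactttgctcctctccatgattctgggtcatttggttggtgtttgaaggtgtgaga
Trim21, chr7:102565453-102565552, minus strand: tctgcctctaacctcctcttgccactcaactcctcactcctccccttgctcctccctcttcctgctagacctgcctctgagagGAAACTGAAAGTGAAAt
Trim34a, chr7:104244387-104244486, plus strand: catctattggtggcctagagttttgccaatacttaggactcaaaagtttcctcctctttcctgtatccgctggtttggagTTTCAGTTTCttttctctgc
Trim12a, chr7:104315466-104315565, minus strand: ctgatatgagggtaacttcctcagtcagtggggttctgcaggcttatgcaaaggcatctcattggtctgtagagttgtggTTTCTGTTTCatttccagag
Trim12c, chr7:104353320-104353419, minus strand: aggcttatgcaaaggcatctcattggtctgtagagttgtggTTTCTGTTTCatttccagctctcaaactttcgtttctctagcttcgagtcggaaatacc
Trim5, chr7:104288077-104288176, minus strand: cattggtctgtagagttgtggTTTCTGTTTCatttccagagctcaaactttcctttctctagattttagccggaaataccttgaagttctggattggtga
Trim30a, chr7:104465164-104465263, minus strand: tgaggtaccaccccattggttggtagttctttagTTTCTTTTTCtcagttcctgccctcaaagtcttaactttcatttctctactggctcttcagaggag
Trim30d, chr7:104507820-104507919, minus strand: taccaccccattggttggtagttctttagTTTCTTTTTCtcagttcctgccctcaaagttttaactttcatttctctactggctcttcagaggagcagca
Trim26, chr17:36836976-36837075, plus strand: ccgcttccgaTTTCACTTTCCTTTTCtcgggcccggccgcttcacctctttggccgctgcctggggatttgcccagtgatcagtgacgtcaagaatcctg

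Of the 40 members, 31 had a window of 250 bases before to 50 after the start in that table. The ISRE core was found in 8 of the 14 of them that were called higher with cytokines in control cells (57.1%). It was found in 1 of the 17 other members (5.88%), Trim2, and in 3.99% of 27025 genes with a window. Trim21 and Trim26 each held 2 overlapping matches. Trim5, Trim12a and Trim12c held the same letters in the same surroundings, as did Trim30a and Trim30d, so these matches are copies of 2 stretches and not separate cases. The GAS motif was found in 1 of the 14 (7.14%), in 2 of the 17 others (11.8%) and in 9.55% of all genes. Each match is a run of letters, and whether a factor binds there was not measured.

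The comparison of stimulated with unstimulated cells asked how the inflammatory stimulus changed the family. In control cells 15 members rose (37.5% of 40, against 5.75% of all genes tested) and 2 fell (against 1.06% of all genes). In Adam17-KD cells 13 rose (32.5%, against 6.37% of all genes) and 3 fell (against 1.53%). The same 13 rose in both kinds of cell, and Trim34b and Trim6 were called in control cells only. Every adjusted p given is from edgeR's quasi-likelihood test with Benjamini-Hochberg adjustment over all genes tested, unless another method is named. Beside these calls, the median log2 fold change over the 40 members was 0.08 in Adam17-KD cells and 0.03 in control cells. Over all genes tested it was 0.00 and -0.03, so the middle of the family barely moved and the rises came from a subset. In these 15 genes every stimulated library lay above every unstimulated one, in both kinds of cell. Such a gap was found in 14.1% of all genes in Adam17-KD cells and in 11% in control cells. The 3 members that reached the limit only through stimulated cells had to differ in this direction. Of the 37 members with a mean over all 12 libraries of at least 1 CPM, 12 rose in Adam17-KD cells and 13 in control cells. These 37 leave out Trim30b, Trim34b and Trim62 but keep Trim30c, which passed the limit only through stimulated cells.

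**Figure D1:**
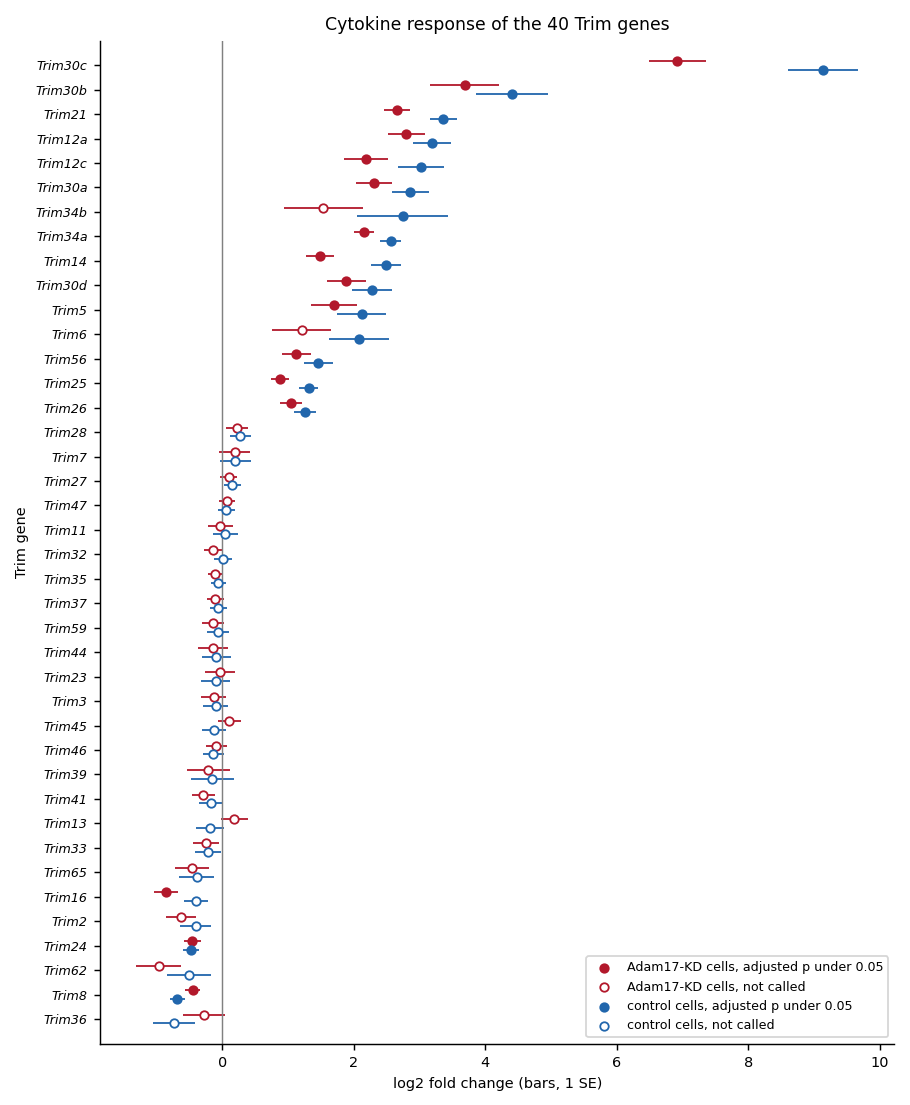
Log2 fold change of stimulated over unstimulated cells (horizontal axis, bars 1 SE) for the 40 Trim genes, in Adam17-KD cells (red) and control cells (blue). Filled points passed an adjusted p of 0.05, and the 15 genes at the top, from Trim30c at 9.14 to Trim26 at 1.26 in control cells, stand clear of the other 25.

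Trim30c had the largest change. It is one of the mouse genes next to Trim30a, whose product restrains Toll-like receptor signalling. It stood at 14.7, 22.1 and 26.5 CPM in stimulated Adam17-KD cells, against 0.266, 0.215 and 0.0437 CPM in unstimulated Adam17-KD cells. In control cells Trim30c stood at 14.4, 22.3 and 23.7 CPM with cytokines, against 0, 0.0521 and 0.0429 CPM without. The gene was thus close to absent without cytokines and clearly present with them. The unstimulated control level rests on 2 reads in 3 libraries, against 1026 reads with cytokines, a ratio of 698 per scaled total with an exact 95% interval of 193 to 5770 for counting error only. In Adam17-KD cells 980 reads stood against 10, a ratio of 123 (66.6 to 257). The fitted log2 fold changes were 6.92 ± 0.44 in Adam17-KD cells (SE, adjusted p = 9.12e-08) and 9.14 ± 0.53 in control cells (adjusted p = 3.46e-08). At such low counts the fitted value depends on the model's prior count, and without unstimulated control replicate 1 it was 8.55.

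The other Trim30 genes rose less, from different starting levels. Trim30a stood at 146, 218 and 262 CPM in stimulated Adam17-KD cells, against 33.7, 57.4 and 35.1 CPM in unstimulated ones. In control cells Trim30a stood at 110, 206 and 162 CPM with cytokines, against 18.6, 25.8 and 21.3 CPM without. Its log2 fold changes were 2.31 ± 0.28 in Adam17-KD cells (adjusted p = 5.69e-05) and 2.86 ± 0.29 in control cells (adjusted p = 8.56e-06), and Trim30a was thus well expressed before stimulation, unlike Trim30c. Trim30d stood at 60.1, 95.0 and 106 CPM in stimulated Adam17-KD cells, against 21.8, 28.6 and 20.4 CPM in unstimulated ones. In control cells Trim30d stood at 37.2, 93.5 and 66.4 CPM with cytokines, against 12.5, 16.5 and 11.8 CPM without. The libraries lowest for Trim30a with cytokines were also the lowest for Trim30d, replicate 1 in each kind of cell. Trim30b had the lowest level of the 4 genes except in unstimulated control cells, where Trim30c was lower. It stood at 1.46, 1.45 and 1.86 CPM in stimulated Adam17-KD cells against 0.106, 0.161 and 0.0873 CPM in unstimulated ones. In control cells Trim30b stood at 0.772, 2.20 and 2.08 CPM with cytokines, against 0.0379, 0.104 and 0.0858 CPM without. Its rise, a log2 fold change of 3.69 ± 0.52 in Adam17-KD cells (adjusted p = 0.000268) and 4.40 ± 0.54 in control cells (adjusted p = 7.12e-05), rests on 1 to 3 reads in each unstimulated library.

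Trim21 encodes a cytosolic receptor for the Fc part of antibodies that marks antibody-coated virus for the proteasome. It stood at 114, 143 and 139 CPM in stimulated Adam17-KD cells, against 20.8, 22.5 and 19.4 CPM in unstimulated ones. In control cells Trim21 stood at 95.0, 166 and 112 CPM with cytokines, against 14.1, 11.3 and 10.8 CPM without. All stimulated libraries were far above all unstimulated ones, with log2 fold changes of 2.66 ± 0.20 in Adam17-KD cells (adjusted p = 4.34e-07) and 3.36 ± 0.20 in control cells (adjusted p = 4.92e-08).

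Trim5, Trim12a and Trim12c are the mouse relatives of primate TRIM5, which recognises the capsid of incoming retroviruses. Trim12a stood at 63.1, 102 and 81.2 CPM in stimulated Adam17-KD cells, against 11.2, 13.2 and 10.9 CPM in unstimulated ones. In control cells Trim12a stood at 46.3, 99.3 and 59.2 CPM with cytokines, against 6.6, 9.64 and 6.22 CPM without. Replicate 2 was the highest library in each of the 4 groups. Trim12c was also highest in replicate 2 of each group, at 38.2, 60.9 and 56.2 CPM in stimulated Adam17-KD cells against 8.78, 16.9 and 8.47 CPM in unstimulated ones. In control cells Trim12c stood at 27.6, 65.0 and 40.6 CPM with cytokines, against 4.36, 7.03 and 5.02 CPM without. Trim5 was the scarcest of the 3 genes, at 6.58, 7.60 and 6.83 CPM in stimulated Adam17-KD cells against 2.39, 2.53 and 1.57 CPM in unstimulated ones. In control cells Trim5 stood at 3.09, 5.76 and 4.65 CPM with cytokines, against 0.569, 1.72 and 0.858 CPM without. The log2 fold changes in Adam17-KD cells were 2.80 ± 0.28 for Trim12a, 2.19 ± 0.34 for Trim12c and 1.70 ± 0.35 for Trim5. In control cells they were 3.19 ± 0.28, 3.02 ± 0.35 and 2.12 ± 0.37 in the same order, and all 6 values passed the test, with a highest adjusted p of 0.00573.

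Trim34a and Trim34b resemble human TRIM34, a partner of TRIM5 in primate cells. Trim34a stood at 38.2, 44.0 and 42.7 CPM in stimulated Adam17-KD cells, against 8.20, 11 and 8.78 CPM in unstimulated ones. In control cells Trim34a stood at 27.7, 33.0 and 36.1 CPM with cytokines, against 5.76, 5.42 and 5.19 CPM without. Its 3 replicates lay close together in every group, and its log2 fold changes were 2.16 ± 0.15 in Adam17-KD cells (adjusted p = 3.06e-07) and 2.56 ± 0.16 in control cells (adjusted p = 6.07e-08). Trim34b stood at 1.40, 1.57 and 0.853 CPM in stimulated Adam17-KD cells, against 0.266, 0.323 and 0.699 CPM in unstimulated ones. In control cells Trim34b stood at 0.95, 0.455 and 1.55 CPM with cytokines, against 0.190, 0.260 and 0 CPM without. The log2 fold change of Trim34b was 2.74 ± 0.69 in control cells (adjusted p = 0.0266), while the 1.54 ± 0.59 of Adam17-KD cells missed the threshold (adjusted p = 0.177). The call in control cells ended without unstimulated control replicate 1 or 3 (adjusted p = 0.0834 and 0.0810) and without stimulated control replicate 1 or 3 (adjusted p = 0.0603 and 0.151).

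Trim14 lacks the RING finger and serves as a mitochondrial adaptor in the signalling that follows detection of viral RNA. It stood at 10.7, 14 and 10.3 CPM in stimulated Adam17-KD cells, against 4.52, 4.73 and 3.23 CPM in unstimulated ones. In control cells Trim14 stood at 11.9, 9.70 and 11.7 CPM with cytokines, against 1.67, 2.19 and 2.10 CPM without. The stimulated levels of both kinds of cell overlapped, whereas every unstimulated Adam17-KD library was above every unstimulated control library. Its log2 fold changes were 1.49 ± 0.21 in Adam17-KD cells (adjusted p = 0.000305) and 2.49 ± 0.23 in control cells (adjusted p = 3.22e-06).

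Trim25, Trim26 and Trim56 were abundant before stimulation and rose by less. Trim25 is the ligase that ubiquitinates the RNA sensor RIG-I, and it stood at 281, 292 and 272 CPM in stimulated Adam17-KD cells against 161, 161 and 139 CPM in unstimulated ones. In control cells Trim25 stood at 279, 369 and 284 CPM with cytokines, against 114, 144 and 116 CPM without. Trim26, which acts on the transcription factor IRF3 in the nucleus, stood at 207, 248 and 219 CPM in stimulated Adam17-KD cells against 105, 126 and 96.6 CPM in unstimulated ones. In control cells Trim26 stood at 222, 281 and 216 CPM with cytokines, against 96.5, 122 and 82.3 CPM without. Trim56, an enhancer of signalling through the DNA-sensing adaptor STING, stood at 91.6, 117 and 86.8 CPM in stimulated Adam17-KD cells against 42.5, 53.1 and 39.5 CPM in unstimulated ones. In control cells Trim56 stood at 91.0, 135 and 88.5 CPM with cytokines, against 33.4, 50.6 and 30.5 CPM without. Replicate 2 of stimulated control cells was the highest library for all 3 genes. Their rises were 1.84-fold, 2.06-fold and 2.19-fold for Trim25, Trim26 and Trim56 in Adam17-KD cells (highest adjusted p = 0.00358). In control cells they were 2.49-fold, 2.39-fold and 2.75-fold (highest adjusted p = 0.000434).

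**Figure D2:**
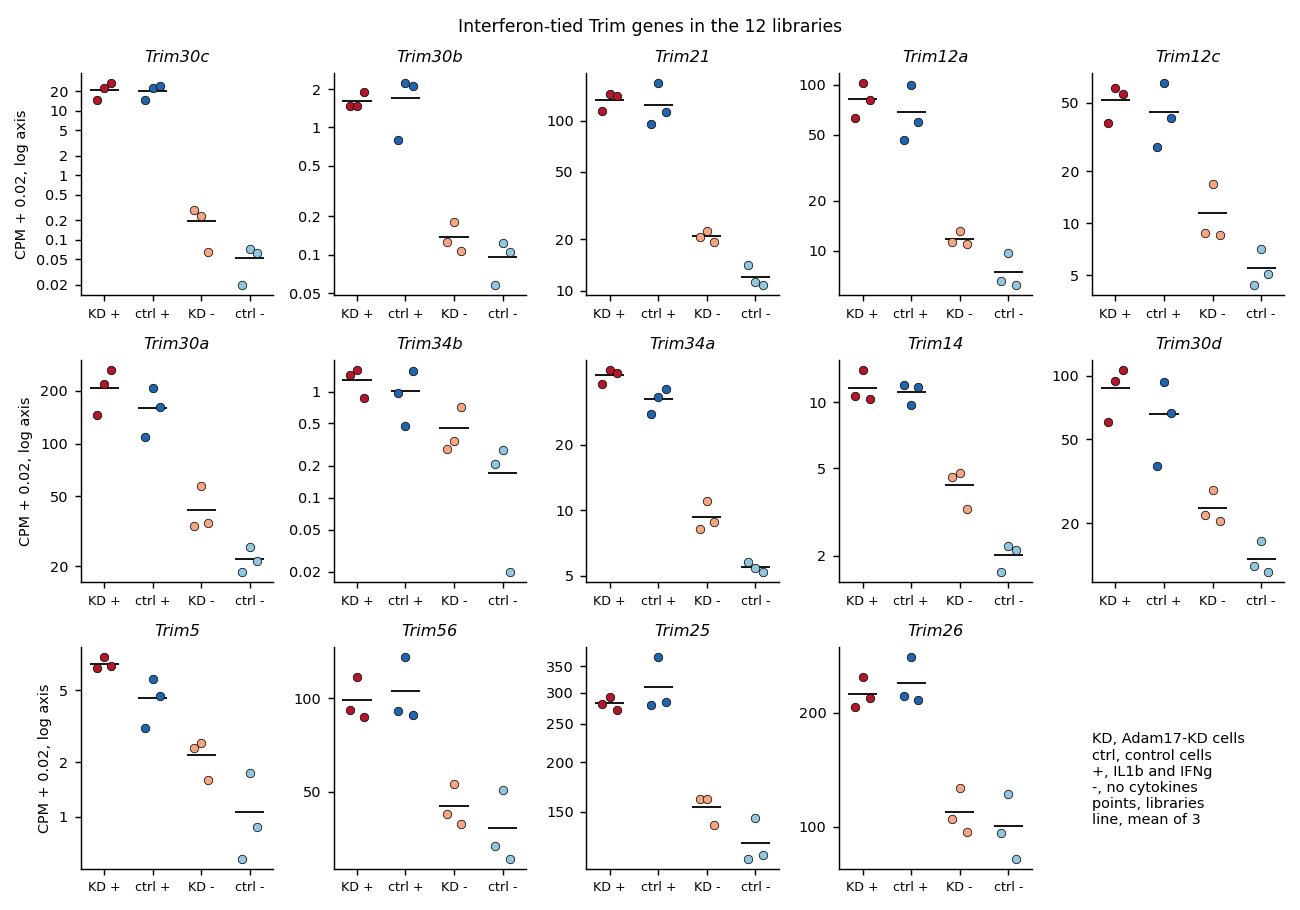
CPM of the 14 interferon-tied Trim genes in each library (vertical log axis, 0.02 CPM added), with lines at the mean of 3 libraries, for stimulated Adam17-KD and control cells and unstimulated Adam17-KD and control cells from left to right. In every panel the stimulated libraries of each kind of cell lie above its unstimulated ones. In 8 of the 14 panels unstimulated Adam17-KD cells lie above unstimulated control cells without overlap. Of all genes tested 8.38% had this last gap, and no member was called in that comparison.

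These 14 genes were the members of a list of TRIM genes tied to interferon and antiviral defence. Of the 14 genes, 13 rose in Adam17-KD cells (6.37% of all genes did), with a median log2 fold change of 2.02 over the list. In control cells 14 rose (5.75% of all genes), with a median of 2.65. The list was chosen with earlier results of these data known, so these counts are no independent support. Trim30b, Trim30c and Trim34b passed the limit of 1 CPM only through stimulated cells. Trim38, the only other gene of the list, was not a member, with at most 2 reads in any library. Trim6 lay outside the list and the rule for named genes and was singled out after its values were seen. The ligase TRIM6 makes unanchored ubiquitin chains that activate the kinase IKKε in human cells. Trim6 stood at 3.40, 3.44 and 2.79 CPM in stimulated Adam17-KD cells, against 1.38, 1.99 and 0.830 CPM in unstimulated ones. In control cells Trim6 stood at 2.61, 7.5 and 2.62 CPM with cytokines, against 0.986, 1.35 and 0.643 CPM without. Stimulated control replicate 2 was far above the other libraries for Trim6. The log2 fold change was 2.08 ± 0.46 in control cells (adjusted p = 0.0103) and 1.40 without that library (adjusted p = 0.0362). The call ended without unstimulated control replicate 1 or 3 (adjusted p = 0.0528 and 0.0612). In Adam17-KD cells the log2 fold change was 1.21 ± 0.45 (adjusted p = 0.156), and 1.21 without stimulated control replicate 2 (adjusted p = 0.0373).

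Of the 15 genes that rose in control cells, 10 lie side by side on mouse chromosome 7 (mm10, 104218793 to 104507849), in 289.1 kb. The order is Trim6, Trim34a, Trim5, Trim12a, Trim34b, Trim12c, Trim30b, Trim30c, Trim30a and Trim30d. Every Trim gene of this cluster was a member, though Trim30b, Trim30c and Trim34b only through stimulated cells. All 10 rose in control cells (5.75% of all genes did) and 8 rose in Adam17-KD cells (6.37% of all genes), all except Trim6 and Trim34b. Trim21 lies on the same chromosome outside the cluster, at 102557921 to 102565486. Trim3 and Trim28, also on chromosome 7 but outside it, were not called in either response. Trim30c, with the largest rise, lay 182 kb from the start of Trim6, between Trim30b and Trim30a. On chromosome 17, Trim26 lies beside Trim15, Trim10, Trim40 and Trim31, none of which was a member.

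**Figure D3:**
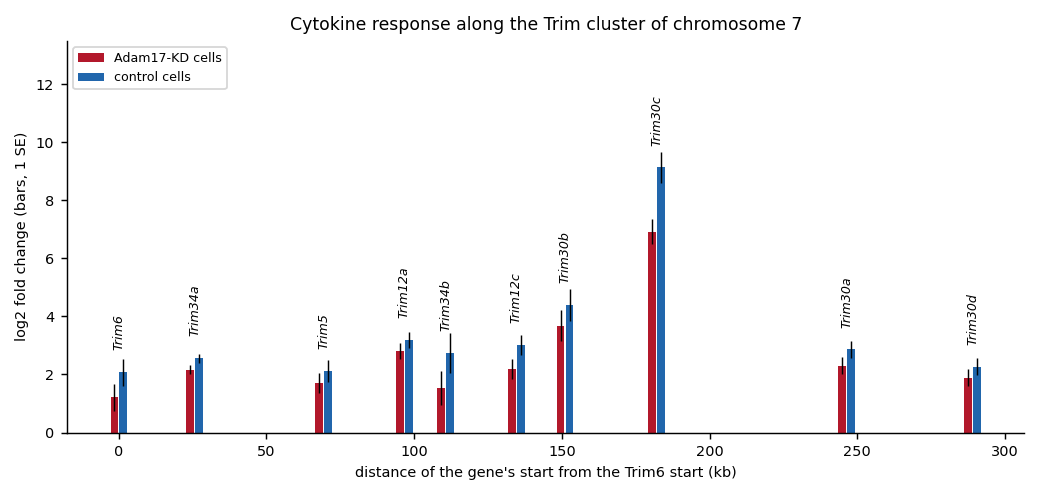
Log2 fold change with cytokines (vertical axis, bars 1 SE) of the 10 Trim genes of the chromosome 7 cluster against the distance of each gene's start from that of Trim6 in kb, in Adam17-KD cells (red) and control cells (blue). Trim30c, 182 kb along, stands at 6.92 and 9.14, and the other 9 lie between 1.21 and 4.40.

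Several genes of this cluster share stretches of sequence, and the sources used here do not say how reads that fit several genes were counted. Of all stretches of 100 bases in the transcripts of Trim34b, 30.5% also occur in another member, Trim34a, and for Trim34a the share was 21.0%. For Trim5 the share was 9.73%, for Trim12c 8.03%, for Trim12a 2.62%, for Trim30d 4.57% and for Trim30a 4.41%. Trim30b, Trim30c and Trim6 shared none at this length. Values of Trim34a and Trim34b as separate genes are therefore the least certain of the cluster. Trim14 overlaps the exons of Nans on the other strand over 31.3% of its exon bases, and Trim34a overlaps those of Gm47248 over 23.5%. Whether counting used the strand is not given in the sources used here.

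Few members fell, and by less than any called member rose. Trim8, a ligase that acts on the cytokine signalling suppressor SOCS1, stood at 71.1, 72.2 and 67.2 CPM in stimulated Adam17-KD cells against 89.0, 97.9 and 100.5 CPM in unstimulated ones. In control cells Trim8 stood at 63.2, 49.9 and 59.0 CPM with cytokines, against 89.7, 88.0 and 99.3 CPM without. The groups did not overlap in either kind of cell, and log2 fold changes were -0.45 ± 0.11 in Adam17-KD cells (adjusted p = 0.0243) and -0.69 ± 0.11 in control cells (adjusted p = 0.00113). The call in Adam17-KD cells ended without any 1 stimulated Adam17-KD library or unstimulated replicate 2 or 3 (adjusted p = 0.0608 to 0.0890). Trim24, which is named though it lay outside the rule for named genes, encodes a chromatin reader with a PHD finger and a bromodomain. It stood at 22.4, 22.9 and 22.5 CPM in stimulated Adam17-KD cells, against 33.5, 30.8 and 28.6 CPM in unstimulated ones. In control cells Trim24 stood at 17.6, 21.3 and 20.7 CPM with cytokines, against 27.3, 29.3 and 26.4 CPM without. Its log2 fold changes were -0.45 ± 0.12 (adjusted p = 0.0360) in Adam17-KD cells and -0.48 ± 0.12 (adjusted p = 0.0297) in control cells. Each of these calls ended in 8 of the 12 fits that left out 1 library, with adjusted p up to 0.156 in Adam17-KD cells and 0.135 in control cells and log2 fold changes from -0.53 to -0.40. The 4 fits that kept the call in Adam17-KD cells left out unstimulated Adam17-KD replicate 3, unstimulated control replicate 2 or stimulated control replicate 1 or 2. In control cells they left out stimulated Adam17-KD replicate 1, 2 or 3 or stimulated control replicate 2.

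Trim16, likewise named after its values were seen, encodes a RING-less protein that helps clear damaged lysosomes. It stood at 8.74, 10.5 and 7.14 CPM in stimulated Adam17-KD cells, against 15.5, 17.9 and 14.4 CPM in unstimulated ones. In control cells Trim16 stood at 9.38, 9.09 and 7.12 CPM with cytokines, against 11.8, 11.4 and 10.6 CPM without. The log2 fold change was -0.85 ± 0.18 in Adam17-KD cells (adjusted p = 0.00779) and -0.40 ± 0.18 in control cells (adjusted p = 0.317), and the difference between these responses did not pass the test (log2 -0.45 ± 0.26, adjusted p = 1).

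By structure, the 22 members of the PRY-SPRY class gave most of the rises. Trim30b, Trim30c and Trim34b of this class passed the limit of 1 CPM only through stimulated cells. In Adam17-KD cells 11 rose (6.37% of all genes did) and none fell, with a class median log2 fold change of 1.13. In control cells 13 rose (5.75% of all genes) and none fell, with a median of 1.70. The 9 others of the class were Trim7, Trim11, Trim27, Trim35, Trim39, Trim41, Trim47, Trim62 and Trim65, with log2 fold changes of -0.96 to 0.19 in Adam17-KD cells and -0.50 to 0.20 in control cells. None of these 9 was called. This class thus held most that rose and also members with no call. Its counts are not those of all PRY-SPRY proteins, since Trim36 and Trim46 carry the domain in another class. Trim14 and Trim16, which lack the RING finger, were filed apart whatever domain they end in, and Trim16 fell in Adam17-KD cells. Of the 18 members of other classes, Trim14 and Trim56 rose in both kinds of cell, beside the same shares of all genes. The NHL-repeat proteins Trim2, Trim3 and Trim32, the MATH-domain protein Trim37, the ARF-domain protein Trim23 and the filamin-domain protein Trim45 were not called in either response. Neither were Trim13 and Trim59, which have a transmembrane segment, nor Trim36 and Trim46, which bind microtubules. Trim28 and Trim33, which are chromatin corepressors of the class of Trim24, and Trim44, which lacks the RING finger, were not called either.

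Per kb of exon (union of exons in GENCODE M21, mean of 3 libraries), Trim28 had the highest level of all members in each group, 79.1 CPM per kb in stimulated Adam17-KD cells and 87.4 CPM per kb in stimulated control cells. Without cytokines it stood at 67.7 CPM per kb in Adam17-KD cells and 72.1 CPM per kb in control cells. In stimulated cells Trim25, Trim47 and Trim30a came next, at 49.0, 47.4 and 50.7 CPM per kb in Adam17-KD cells and 53.9, 43.9 and 38.7 CPM per kb in control cells. In unstimulated cells Trim30a was far lower in that order, at 10.2 CPM per kb in Adam17-KD cells and 5.33 CPM per kb in control cells, while Trim47 stood at 45.2 and 42.0 CPM per kb. Trim30c stood at 12.3 CPM per kb in stimulated Adam17-KD cells and 11.7 CPM per kb in stimulated control cells, while Trim12a, Trim12c and Trim34a stood at 13.8 to 16.1 and 11.8 to 12.4 CPM per kb. In stimulated control cells these 3 came just above Trim30c in the order and lay within each other's spread over libraries. Summed over the 40 members, levels were 2493 to 2773 CPM in stimulated Adam17-KD cells and 2415 to 2908 CPM in stimulated control cells. Without cytokines the sums were 1794 to 1928 CPM in Adam17-KD cells and 1708 to 1823 CPM in control cells, so the stimulated libraries lay above all unstimulated ones.

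The 15 genes that rose in control cells were picked by their call there, which favours larger fitted responses in control cells. All 15 had a smaller fitted response in Adam17-KD cells. None of these differences passed the test. Of all 40 members, the difference of responses was negative in 32 and positive in 8, and no member and no other gene was called (0% of all genes with edgeR, and 0.0341% with DESeq2, which called no member). At an unadjusted p under 0.05 there were 4 members, Trim14, Trim21, Trim25 and Trim30c, all negative, against 1.51% of all genes. Trim14 had the smallest p of these, with log2 -1.0 ± 0.30, unadjusted p = 0.00577 and adjusted p = 1 in the edgeR test. The responses share the unstimulated libraries with the knockdown effect described next, so a higher unstimulated level in Adam17-KD cells enters both.

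The comparison of Adam17-KD with control cells asked what differed in the family where Adam17 was reduced, though not absent. Without cytokines the main model, which held no replicate block, called no member (0.47% of all genes were called). Same-numbered libraries of these groups counted as paired by the rule given below, and the fit with the block follows. In the main model 11 members had an unadjusted p under 0.05, against 7.56% of all genes. All 11 were higher in Adam17-KD cells. The groups did not overlap, with Adam17-KD higher, in 10 members (25%, against 8.38% of all genes). They were Trim12a, Trim12c, Trim14, Trim16, Trim21, Trim30a, Trim30d, Trim34a, Trim34b and Trim47. No member had the opposite gap, which 7.53% of all genes had. Of the 14 interferon-tied members, all 14 had log2 fold changes above 0 and the median was 0.79. That list was chosen with earlier results of these data known. Several of its genes share stretches of sequence, so they are not 14 separate cases. Over the 40 members the median was 0.14, and over all genes it was -0.01. Log2 fold changes were 0.77 ± 0.16 for Trim34a (adjusted p = 0.0511), 1.07 ± 0.23 for Trim14 (adjusted p = 0.0636), 0.79 ± 0.19 for Trim21 (adjusted p = 0.126) and 0.94 ± 0.27 for Trim30a (adjusted p = 0.241).

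**Figure D4:**
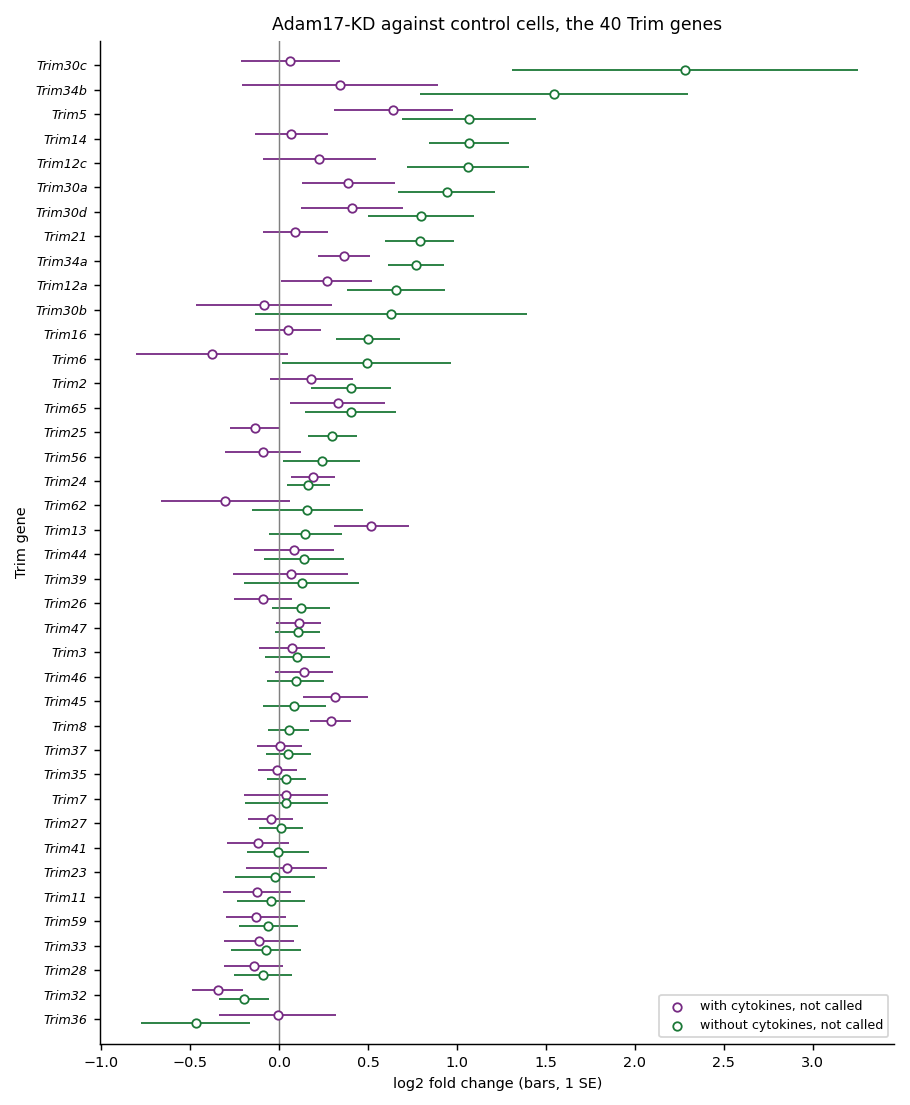
Log2 fold change of Adam17-KD over control cells (horizontal axis, bars 1 SE) for the 40 Trim genes, with cytokines (purple) and without (green). Open points did not pass the test, which here are all points. Without cytokines the genes that lead the order, from Trim30c at 2.28 to Trim12a at 0.66, are interferon-tied. The list of interferon-tied genes was chosen with earlier results of these data known. Trim30c and Trim34b, at the head of this order, rest on few reads per library. In unstimulated Adam17-KD against control cells these were 5, 4 and 1 against 0, 1 and 1 for Trim30c. For Trim34b they were 5, 6 and 16 against 5, 5 and 0.

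Whether a member was called without cytokines depended on the test. With the replicate number as a block, Trim12c (log2 1.02, adjusted p = 0.0213), Trim30a (0.92, adjusted p = 0.0278) and Trim34a (0.76, adjusted p = 0.0331) exceeded control cells, 3 members beside 0.756% of all genes. With DESeq2, Trim14, Trim21, Trim30a and Trim34a were (adjusted p from 0.00123 to 0.0478), 4 members beside 1.4% of all genes. Without stimulated control replicate 2, which takes no part in this comparison but in the estimate of the spread, Trim14, Trim21 and Trim34a were called higher by edgeR, 3 members beside 0.751% of all genes. Without unstimulated Adam17-KD replicate 3, Trim14 was called higher, beside 0.456% of all genes. RLE scaling called Trim34a higher, beside 0.504% of all genes, and no filter on low counts called 7 members higher, beside 0.626% of the 29878 genes it tested. The summed fibroblast and endothelial markers, given above, were higher in every unstimulated Adam17-KD library than in any unstimulated control library. Of the 6 tested genes of that list 1 was called (0.47% of all genes were), the collagen gene Col1a2. It differed by 0.77 ± 0.15 on the log2 scale (adjusted p = 0.0342), and the part of such a shift in the Trim values was not tested.

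With cytokines no member was called (0.0341% of all genes were), none by DESeq2 (0.504% of all genes), and 4 members had an unadjusted p under 0.05, against 4.61% of all genes. Trim13, Trim34a and Trim8 of these were higher and Trim32 was lower in Adam17-KD cells, with log2 fold changes of 0.52, 0.37, 0.29 and -0.35. The groups did not overlap in 5 members with Adam17-KD higher (4.83% of all genes) and in 1 with Adam17-KD lower (3.23%). Over the 14 interferon-tied members the median log2 fold change was 0.16. Trim14 and Trim21, which stood among the larger unstimulated differences, had log2 fold changes of 0.07 ± 0.21 and 0.09 ± 0.18 with cytokines.

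Averaged over both conditions, Trim34a was higher in Adam17-KD cells, with a log2 fold change of 0.57 ± 0.11 (adjusted p = 0.02). It was the only member called, beside 1.06% of all genes called higher. Its levels, given above, did not overlap between Adam17-KD and control cells in either condition. The call ended without replicate 2 of unstimulated Adam17-KD, unstimulated control or stimulated Adam17-KD cells, without unstimulated control replicate 3 and without stimulated control replicate 1 (adjusted p = 0.0535 to 0.0803). With the replicate block, 4 members were higher, Trim12a, Trim12c, Trim30a and Trim34a, beside 1.68% of all genes. Without stimulated control replicate 2 there were 5, Trim12a, Trim21, Trim30a, Trim30d and Trim34a, beside 1.28% of all genes called higher. DESeq2 called 4 higher, Trim5, Trim14, Trim30a and Trim34a, beside 2.46% of all genes, and no filter on low counts called 7, beside 1.04% of the 29878 genes.

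Genes of the same pathways outside the symbol rule were read from lists, which were chosen with earlier results of these data known. Of 13 tested genes of IFNγ receptor, JAK-STAT and IRF signalling, 9 rose in Adam17-KD cells (6.37% of all genes did) and 9 in control cells (5.75%). The median log2 fold change was 1.72 in each. Irf1, a transcription factor that binds ISRE-like sites, changed by 4.34 ± 0.18 in Adam17-KD cells (adjusted p = 1.12e-09) and 5.04 ± 0.18 in control cells (adjusted p = 2.89e-10) on the log2 scale. Irf1 was not called between Adam17-KD and control cells. Of 26 genes of RNA and DNA sensing, where several TRIM ligases act, 10 rose in Adam17-KD and 11 in control cells, beside the same shares. In unstimulated cells 5 of these 26 were higher with Adam17-KD, while 0.47% of all genes were called in either direction. Among the 5 were the nucleic acid sensor Zbp1 (log2 1.54 ± 0.21, adjusted p = 0.00684) and the transcription factor Irf7 (0.92 ± 0.15, adjusted p = 0.0149).

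Among 18 genes of E2 enzymes and the ISG15 pathway, 5 rose in Adam17-KD cells (6.37% of all genes) and 5 in control cells (5.75%). They were Isg15, which encodes the ubiquitin-like protein ISG15, and Herc6, Ube2l6, Uba7 and Usp18, which attach or remove it. Isg15 itself averaged 774 CPM in stimulated Adam17-KD cells and 718 CPM in stimulated control cells, against 186 and 159 CPM in unstimulated Adam17-KD and control cells. Usp18, the protease that removes ISG15, was higher in unstimulated Adam17-KD than control cells (log2 0.86 ± 0.15, adjusted p = 0.0187). Of 5 TRIM family genes under other symbols 3 were tested, and Pml, which organises nuclear bodies, rose by 1.16 ± 0.13 on the log2 scale in Adam17-KD cells (adjusted p = 2.21e-05) and by 1.39 ± 0.13 in control cells (adjusted p = 3.69e-06). The microtubule-binding Mid1 and Mid2 were not called.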

How the data were processed

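Libraries of poly(A)+ RNA came from a ThermoFisher Ion Total RNA-Seq kit (per the labels), and mm10 is the build named. Aligner, counter and annotation are not given in the sources used here. The deposited table holds counts, whole numbers of reads per gene that the authors did not normalise. In 2 rows the gene name had become a date, and they were left out (0.00808% of the counts). The authors' own tables compare control with Adam17-KD cells (fold changes, p-values) and were not used.

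The analysis used edgeR 4.0.16 under R 4.3.3: filterByExpr on the 4 groups (14673 genes), TMM scaling, a mean per group over all 12 libraries (8 residual degrees of freedom), quasi-likelihood F-tests of 6 contrasts, Benjamini-Hochberg adjustment over all genes tested, called at an adjusted p under 0.05. The code was tried on counts simulated under the model's own assumptions, which checks the code and not whether the model suits these data. CPM uses the TMM-scaled total. Values are given with the SE of the fit, and levels over n = 3 libraries per group.

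The members and lists were chosen with earlier results of these data known. Values in every library are given for up to 14 called members with the smallest adjusted p and for the interferon-tied list, and up to 4 genes of other lists are named. Positions and transcripts are from GENCODE M21 (GRCm38).

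The alternatives tried were DESeq2 1.42.0, a replicate block, RLE scaling, no filter, a fit to only the groups compared, unscaled CPM for the limit of 1 CPM, and each library left out. The labels number the replicates. The main model held no replicate block. Same-numbered samples counted as paired where, for all 3 numbers, r between their deviations from the group means was over 0.1. This held for unstimulated Adam17-KD and control cells (r = 0.221, 0.279 and 0.457 across genes) and for the response of control cells (r = 0.133, 0.443 and 0.487). It did not hold for stimulated Adam17-KD and control cells (r = 0.448, 0.109 and -0.249) or for the response of Adam17-KD cells (r = -0.171, 0.301 and -0.111). Samples of different groups with different numbers had r from -0.564 to 0.398, so an r just over 0.1 does not set same-numbered samples apart.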

Additional observations from a re-analysis of the deposited data

How the results depend on the processing

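The number of members called in the cytokine responses ran from 14 to 17 in Adam17-KD cells and from 14 to 17 in control cells over the libraries left out, and stayed within 1.5 times the main count in the other settings. For the knockdown effect without cytokines, where edgeR called 0 members, the replicate block called 3, DESeq2 4, RLE scaling 1 and no filter 7, and leaving out a library gave 0 to 3. Averaged over both conditions, where edgeR called 1, the block called 4, DESeq2 4 and no filter 7, and leaving out a library gave 0 to 5. With cytokines, and for the difference between responses, no setting called a member. The cause of these shifts was not tested. The limit of 1 CPM gave 40 members with scaled and with unscaled totals. Of 64 values of single members tried with the block, 57 kept their side of the threshold and 7 passed it, in the response of Adam17-KD cells only Trim6 (log2 1.27, adjusted p = 0.0226). The small knockdown values of Trim26 turned sign in 6 fits with a library left out. Averaged over both conditions, it ran from -0.047 to 0.098 over the libraries left out, and without cytokines from -0.0031 to 0.29. No filter ended the calls of Trim24 (log2 -0.46 in Adam17-KD and -0.48 in control cells) and of Trim8 in Adam17-KD cells (-0.46). A fit to only the groups compared ended that of Trim24 in control cells (-0.47), where its filter on low counts left Trim34b untested. Of 768 values of single members with a library left out, 721 kept their direction and their side of the threshold. Depth limits Trim30b, Trim30c and Trim34b, which rest on few reads in unstimulated cells.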

Other observations

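Below the limit of 1 CPM, a few Trim genes had more reads in stimulated than in unstimulated libraries. Trim15, a neighbour of Trim26 on chromosome 17, had 1, 2 and 0 reads in stimulated Adam17-KD cells and 5, 2 and 3 reads in stimulated control cells, against 0 in all 6 unstimulated libraries. Trim72, which takes part in the repair of muscle cell membranes, had 7, 11 and 1 reads in stimulated Adam17-KD cells and 4, 1 and 4 reads in stimulated control cells, against 1, 0 and 1 reads and 1, 0 and 0 reads in unstimulated Adam17-KD and control cells. Neither gene was tested, and both were singled out after their values were seen. Trim68 had no read in any library.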
